A study of Mus musculus with 6 samples.

Results

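The 527 genes described here are the expressed protein-coding genes of mouse chromosome 8, whose RNA level was shifted as a group between 2 kinds of 4T1 tumor. They were chosen by position and level: protein-coding genes on chromosome 8 of GRCm38 with a mean of at least 8 CPM (read pair counts scaled to a common library total) over the 6 libraries, of 1039 protein-coding chromosome 8 genes in the tables and 54146 gene rows in all. A further 42 genes of the chromosome met that minimum and were left out by symbol, among them the cadherins (Cdh), matrix metalloproteinases (Mmp), proteasome subunits (Psm) and zinc finger genes (Zfp). The chromosome was chosen with the difference between the groups known, so every count and median of that difference over the 527 genes is a description and no test is read from it.

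4T1 is a mouse mammary carcinoma line. Either unaltered cells (wild type) or Mki67-/- cells, a knockout of the gene that encodes the proliferation marker Ki-67, were injected into the mammary fat pad of nude mice, hosts that lack a thymus and hence most T cells but keep macrophages, neutrophils and natural killer cells. Tumors were collected 3 weeks later and their RNA was sequenced as 3 wild-type and 3 knockout libraries. The labels state neither the mouse behind each tumor nor how many knockout clones were used, so the p-values measure the spread between these libraries, and a difference between the knockout and the particular cells that carry it cannot be told apart.

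As background, carcinoma lines commonly gain or lose whole chromosomes or arms. In cells with a changed copy number, RNA from most genes of the affected chromosome tends to move by a similar small factor, while single genes can be buffered or regulated on their own. Such a pattern is recognised by a common shift along the chromosome, over genes of unrelated function and of all levels. The files hold RNA counts and no measurement of DNA, so copies of the chromosome and transcription per copy cannot be told apart here, and the values below are differences of RNA level.

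The stretches of 250 bases before 5 start sites show how the promoters of these genes differ. Promoters were matched by symbol to RefSeq on GRCm38.p6 for 366 of the 527 genes. The 5 are Hmgb2, a gene whose difference lay close to the median of all 527, Crispld2 and Adgrg3, 2 of the largest rises, and Hhip and F10, 2 of the largest falls. Each runs 5′ to 3′ on the strand of its gene. Capitals mark the letters of 3 motifs on either strand. The first is GGGCGG, the GC box bound by Sp1 and its relatives. The second is CCAAT, the box bound by NF-Y. The third is the TATA box, searched as TATAAA. The marked motifs do not overlap in the sequences shown.
Hmgb2 (chr8:57511593-57511842, plus strand): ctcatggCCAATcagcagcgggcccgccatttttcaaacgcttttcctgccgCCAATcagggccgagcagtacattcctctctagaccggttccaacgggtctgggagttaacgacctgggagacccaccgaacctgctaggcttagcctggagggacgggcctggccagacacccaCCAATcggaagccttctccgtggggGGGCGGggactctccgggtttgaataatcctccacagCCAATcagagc
Crispld2 (chr8:119992188-119992437, plus strand): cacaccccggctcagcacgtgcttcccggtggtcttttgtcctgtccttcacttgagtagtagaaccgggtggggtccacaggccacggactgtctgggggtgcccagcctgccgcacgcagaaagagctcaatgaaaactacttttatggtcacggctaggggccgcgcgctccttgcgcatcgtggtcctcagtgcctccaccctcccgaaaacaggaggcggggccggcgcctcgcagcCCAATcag
Adgrg3 (chr8:95017442-95017691, plus strand): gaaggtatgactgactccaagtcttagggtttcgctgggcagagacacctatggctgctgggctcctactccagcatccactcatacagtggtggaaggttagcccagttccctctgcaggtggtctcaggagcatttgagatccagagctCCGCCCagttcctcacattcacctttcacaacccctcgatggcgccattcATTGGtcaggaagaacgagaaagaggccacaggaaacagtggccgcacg
Hhip (chr8:80058009-80058258, minus strand): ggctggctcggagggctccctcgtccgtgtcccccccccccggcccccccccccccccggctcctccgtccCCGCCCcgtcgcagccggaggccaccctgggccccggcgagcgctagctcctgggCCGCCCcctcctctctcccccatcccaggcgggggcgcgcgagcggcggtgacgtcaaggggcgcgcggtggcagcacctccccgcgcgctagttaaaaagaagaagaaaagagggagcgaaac
F10 (chr8:13037058-13037307, plus strand): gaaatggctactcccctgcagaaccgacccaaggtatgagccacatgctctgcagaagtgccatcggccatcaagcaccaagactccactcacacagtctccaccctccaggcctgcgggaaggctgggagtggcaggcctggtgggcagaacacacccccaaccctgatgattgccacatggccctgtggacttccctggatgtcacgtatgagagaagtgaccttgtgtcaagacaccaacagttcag
The Hmgb2 window held 4 CCAAT boxes and 1 GC box, the Adgrg3 window 1 of each, the Crispld2 window 1 CCAAT box, the Hhip window 2 GC boxes, and the F10 window none of the 3 motifs. None of the 5 held a TATA box, which says only that those letters are not in these windows. The Hhip window was the richest in GC of the 5, at 76%, with 28 CG pairs, against 4 CG pairs in the F10 window.

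Over the 366 promoters, 65.0% held a GC box, 34.7% a CCAAT box and 5.46% a TATA box. The shares in the 7653 promoters of protein-coding genes at the same minimum on other chromosomes, with no symbols left out, were 62.9%, 36.6% and 6.10%. All 27025 RefSeq promoters gave 33.1%, 34.5% and 13.0%. The median number of CG pairs was 18 for the chromosome 8 genes and 17 for those of other chromosomes. Among the 86 matched genes above the 75th percentile of the difference in RNA level, 64.0% held a GC box and 30.2% a CCAAT box. Among the 83 under the 25th percentile the shares were 57.8% and 33.7%.

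Between 37065778 and 38399826 read pairs were counted to genes per wild-type library, and 22081970 to 30772729 per knockout library, so a count of 0 allows up to 0.0781 to 0.136 CPM (3 counts, counting error only). Unmapped pairs made up 31.2% to 33.9% of all pairs in the wild-type libraries, 30.8% in knockout library 1, and 54.6% and 52.7% in knockout libraries 2 and 3. Mki67, which lies on chromosome 7, stood at 325 to 395 CPM in the wild-type and 98.7 to 139 CPM in the knockout libraries and it fell by 1.60 on the log2 scale (edgeR quasi-likelihood test, adjusted p = 6.79e-05). Epithelial markers rose for 5 of 6 genes, with a summed level of 2748 to 2840 CPM in wild-type and 5412 to 5893 CPM in knockout libraries. Macrophage markers fell for 6 of 6, from 4460 to 5358 CPM down to 760.1 to 887 CPM. In bulk tumors, fewer cells of a type and less RNA per cell cannot be told apart. The part of these markers in the chromosome 8 values was not tested.

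The 527 genes were higher in the knockout tumors by a median of 0.39 on the log2 scale, which is 1.31-fold. The 9517 protein-coding genes of other chromosomes at the same minimum, from which no symbols were left out, had a median of -0.14. The gap between the medians was 0.53, or 1.44-fold. It was 0.52 with the left-out symbols of chromosome 8 kept in. The quartiles of the 527 genes were 0.17 and 0.56, and 355 of them (67.4%) lay within 0.3 of their median. The log2 fold change was above 0 for 455 genes (86.3%), against 36.0% of the genes elsewhere. Of the 9517 genes elsewhere, 12.7% reached the chromosome 8 median.

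Of the 527 genes, 293 (55.6%) were called higher and 31 (5.88%) lower by the edgeR quasi-likelihood test at an adjusted p of 0.05, and 203 did not pass. Of all 19900 genes tested, 36.0% were called, 17.6% higher and 18.4% lower. Of the genes elsewhere at the same minimum, 43.0% were called, 13.7% higher and 29.3% lower. Leaving out a wild-type library left 150, 152 or 153 of the 527 called higher (without wild-type library 1, 2 or 3), and 8.61%, 9.40% or 8.76% of all genes tested in those fits. Most calls were of modest size, with 265 of the 293 under 2-fold. The 203 genes that did not pass had a median of 0.17, and 162 of them lay above 0.

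The level in every knockout library exceeded every wild-type library for 358 of the 527 genes (67.9%), and lay under every wild-type library for 38 (7.21%). These shares were 24.5% and 26.0% over all 19900 genes tested, and 18.7% and 39.3% over the genes elsewhere at the same minimum.

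The shift was of nearly the same size in each knockout tumor once the rest of the genome was taken into account. The median over the 527 genes of each library's log2 CPM minus the wild-type mean was 0.39, 0.39 and 0.31 in knockout libraries 1 to 3. Over the genes of other chromosomes it was -0.11, -0.12 and -0.20. The gap between the medians was 0.50, 0.50 and 0.51, with a mean of 0.50 ± 0.0062 (SD, n = 3). In the wild-type libraries, each set against the other wild-type libraries, the gap had a mean of 0.0011 ± 0.0076 (SD, n = 3). For each gene these wild-type differences cancel out, so a small mean was fixed in advance and only the SD is read. The spread of the gap between knockout libraries was far smaller than the gap itself. Knockout library 1, with fewer unmapped pairs than the other knockout libraries, had a gap like theirs.

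As a share of the counts of all protein-coding genes at the minimum, the 527 genes took 3.79%, 3.83% and 3.82% in wild-type libraries 1 to 3, against 5.18%, 5.24% and 5.21% in knockout libraries 1 to 3. The groups did not overlap. Above 0 in all 3 knockout libraries were 395 of the genes (74.9%), against 23.2% of genes elsewhere.

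Set beside the other 19 chromosomes, chromosome 8 had the highest median, and it was first of the 20 in each of the 3 knockout libraries. Chromosome 14 came next, with a median of 0.17 over 346 genes, then chromosome 6 with 0.12 over 480 genes, and these were the 2 others above 0. The lowest was chromosome 3, at -0.30 over 491 genes. The 75th percentile was under the chromosome 8 median for 18 of the 19 other chromosomes, the exception being chromosome 14, at 0.39. The share called higher was 7.29% to 30.6% on the others. The interquartile range was 0.39 for chromosome 8 and 0.41 to 0.59 for the others. Medians differed from 0 on most chromosomes and in both directions. Where 0 lies depends on the scaling, so the number of chromosomes above 0 can change with it. The median of the genes of other chromosomes was -0.14 here and -0.08 with library totals.

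**Figure D1:**
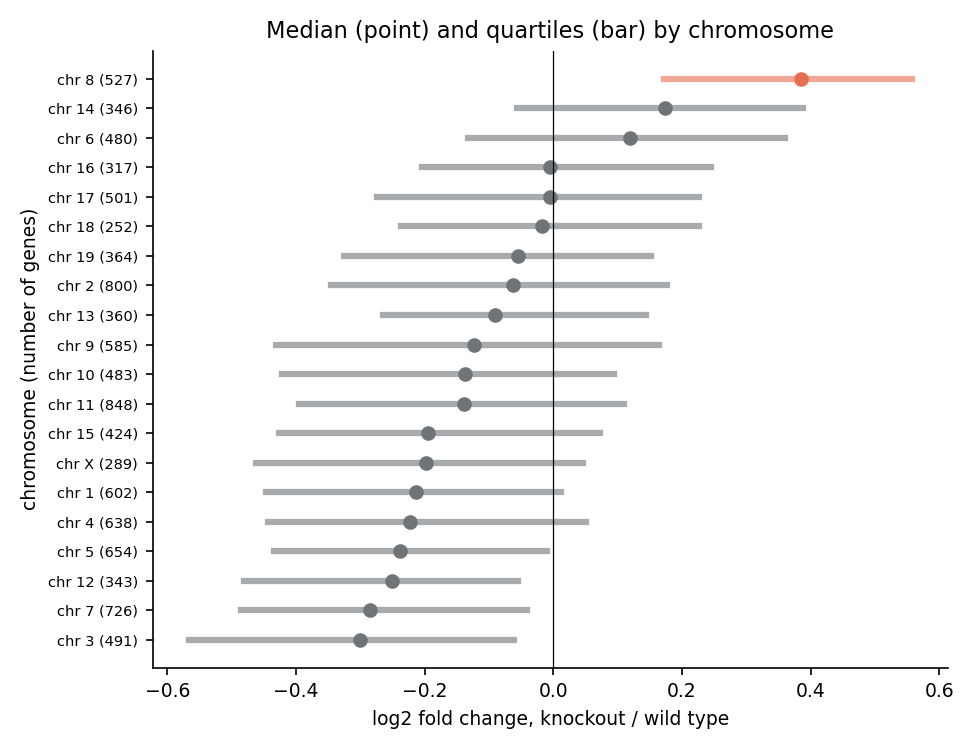
Median (point) and quartiles (bar) of the log2 fold change, knockout over wild type, for protein-coding genes at 8 CPM or more, by chromosome, with the number of genes in brackets. Chromosome 8 lies at 0.39, above chromosome 14 at 0.17 and chromosome 6 at 0.12, and chromosome 3 is lowest at -0.30.

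The shift ran from one end of the chromosome to the other. The genes start between 3.12 and 129.2 Mb. In all 513 windows of 15 neighbouring genes the median log2 fold change was above 0, from 0.13 near 91.07 Mb to 0.72 near 105.5 Mb. The same 513 windows were above 0 in each knockout library, while 228, 214 and 315 of them were above 0 in wild-type libraries 1 to 3. The 144 genes of the first 60 Mb had a median of 0.35 and the 383 beyond it 0.39.

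**Figure D2:**
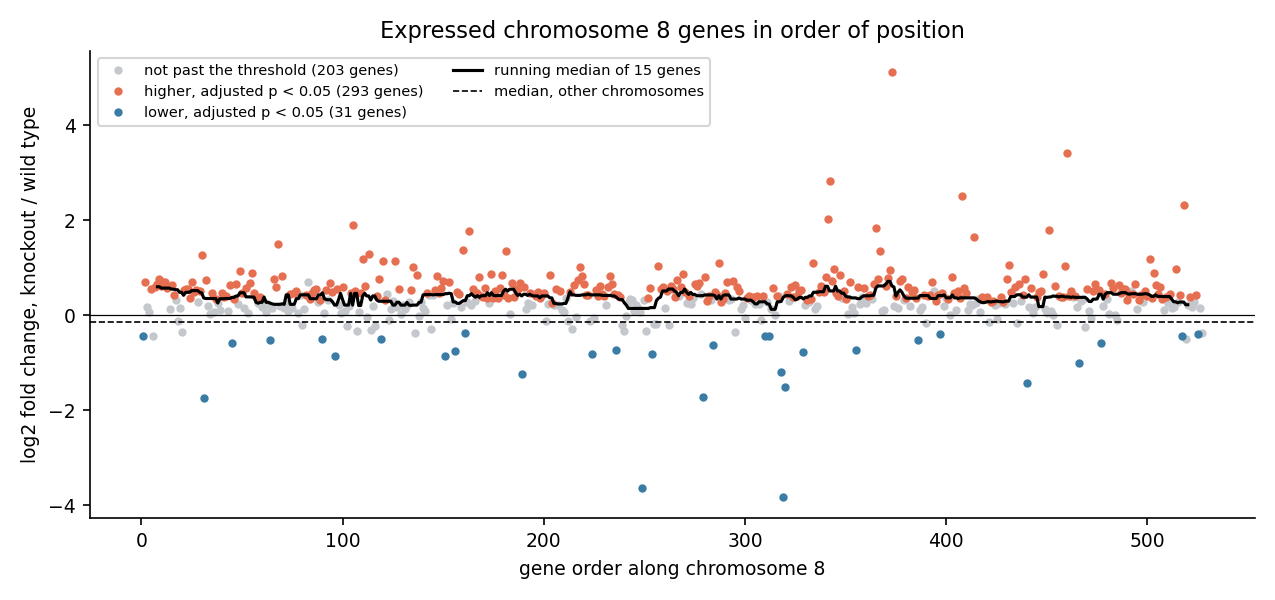
Log2 fold change of each of the 527 genes (y axis) in order of start position along chromosome 8 (x axis), coloured by the edgeR call at an adjusted p of 0.05, with the running median of 15 genes (line) and the median of other chromosomes (dashed). The running median stays above 0 throughout, between 0.13 and 0.72, and single genes depart from it in both directions.

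In bins of 10 Mb the medians ran from 0.15 to 0.55, and from 0.30 to 0.46 over the 11 bins with at least 20 genes. All 13 bins were above 0 in each knockout library. In the wild-type libraries the bin medians stayed between -0.05 and 0.07. Bins of the other chromosomes, 250 in all, had medians from -0.69 to 0.30, with 55 above 0. Of the 12 highest of all 263 bins, 11 were on chromosome 8.

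**Figure D3:**
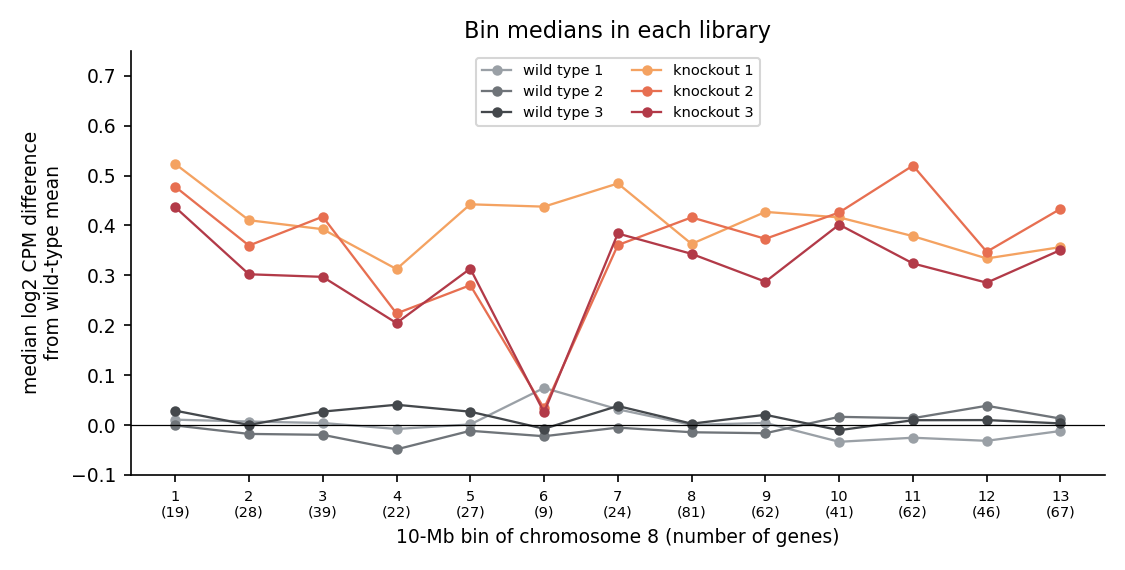
Median difference in log2 CPM from the wild-type mean in each library (y axis) for the 13 bins of 10 Mb along chromosome 8 (x axis, number of genes in brackets), with each wild-type library set against the other wild-type libraries. The knockout lines lie above the wild-type lines, except that in bin 6 (9 genes) knockout libraries 2 and 3 come down to 0.033 and 0.025.

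The bin from 50 to 60 Mb was the most thinly filled, with 9 genes, and had the lowest median, 0.15. Its median was 0.44 in knockout library 1 but 0.033 and 0.025 in the others, and without knockout library 1 the fitted median was -0.034. With the unmapped share as a covariate it was 0.40, with only libraries under 40% unmapped pairs 0.38, and with GC trends removed 0.40, and in these 3 settings other bins were lower. The gene with the most counts there, Hmgb2, which encodes a high-mobility-group DNA-binding protein, stood at 333, 257 and 261.3 CPM in the wild-type libraries and 491, 316 and 341 CPM in the knockout libraries. The groups overlapped, and the log2 fold change of 0.43 (SE 0.18) did not pass (edgeR adjusted p = 0.0901). Without knockout library 1 the Hmgb2 value was 0.20, and with the unmapped covariate or only libraries under 40% unmapped pairs it was 0.72 and 0.73 and passed (edgeR adjusted p = 9.23e-03 and 2.07e-03). Neil3, a DNA glycosylase, and Sap30, a subunit of the Sin3 corepressor complex, rose by 0.85 and 0.48 in the same bin. Vegfc, a lymphatic growth factor, had a value of -0.01, and Galnt7, a Golgi glycosyltransferase, of -0.29, and neither passed.

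At the proximal end, from 0 to 10 Mb, 19 genes had a median of 0.55, the highest of the bins. Stxbp2, which serves granule secretion, had the most counts there: it stood at 97.5, 108 and 102 CPM in wild-type and 156, 168 and 142 CPM in knockout libraries, without overlap, a rise of 0.60 (SE 0.094, edgeR adjusted p = 1.74e-03). The first of the 527 by position, Insr, the insulin receptor, went the other way, from 81.3, 81.4 and 87.3 CPM to 62.7, 61.7 and 61.0 CPM. Insr fell by 0.43 (edgeR adjusted p = 3.88e-03). Genes of opposite direction therefore stood within the same bin.

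From 10 to 20 Mb the gene with the most counts was Col4a1, an alpha chain of basement membrane collagen IV. It stood at 572, 629 and 745 CPM in the wild-type and 801, 1127 and 904 CPM in the knockout libraries, a rise of 0.54 (SE 0.15, edgeR adjusted p = 0.0226). The call was lost in 6 alternatives. Without wild-type library 1 or 2, or knockout library 2 or 3, the edgeR adjusted p was 0.134, 0.104, 0.0549 and 0.0586. With only the libraries under 40% unmapped pairs, where knockout library 1 is the only knockout library, the value was 0.24. Its neighbour Col4a2, which shares a promoter region with it and encodes the partner chain, rose by 0.55. From 20 to 30 Mb, Vdac3, a channel of the outer mitochondrial membrane, went from 181, 168 and 170 CPM to 346, 237 and 248 CPM, a rise of 0.68 (SE 0.14, edgeR adjusted p = 7.20e-03). Knockout library 1 held the highest Vdac3 level, and without wild-type library 3 the gene did not pass (edgeR adjusted p = 0.0576).

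From 30 to 40 Mb, Ppp2cb, a catalytic subunit of protein phosphatase 2A, stood at 151, 151 and 163 CPM in the wild-type libraries and 245, 202 and 222 CPM in the knockout libraries (log2 fold change 0.53, SE 0.098, edgeR adjusted p = 3.92e-03). From 40 to 50 Mb, Slc25a4, the adenine nucleotide carrier of the inner mitochondrial membrane, stood at 345, 344 and 313 CPM and at 520, 347 and 366 CPM. Its value of 0.30 (SE 0.15) did not pass (edgeR adjusted p = 0.159), with knockout library 1 high and the other knockout libraries close to the wild type. Cpe, carboxypeptidase E, which had the most counts from 60 to 70 Mb, showed the same order: 443, 438 and 417 CPM in wild-type against 597, 430 and 491 CPM in knockout libraries, a value of 0.23 that did not pass. Both genes came closest to the wild type in knockout library 2. Without knockout library 1 the values were 0.08 for Slc25a4 and 0.08 for Cpe. With the unmapped covariate they were 0.59 and 0.43 and passed (edgeR adjusted p = 3.26e-03 and 0.0121), as they did with only libraries under 40% unmapped pairs.

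Nfix, a CCAAT-binding nuclear factor I protein, had the most counts from 80 to 90 Mb and went from 278, 318 and 337 CPM to 318, 532 and 418 CPM without passing (0.44, edgeR adjusted p = 0.0789). The highest wild-type level lay above the lowest knockout level.

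Nfat5, the transcription factor of the response to osmotic stress, had the most counts from 100 to 110 Mb and sat apart from its bin. Its level was 257, 249.1 and 255 CPM in wild-type and 206, 288 and 275 CPM in knockout libraries, a value of 0.01 (SE 0.13, edgeR adjusted p = 0.945). Knockout library 1 lay under, and the other knockout libraries above, every wild-type library, and the sign changed with the processing. With the unmapped covariate Nfat5 was at -0.27 and passed as lower (edgeR adjusted p = 0.0424). Glg1, a Golgi glycoprotein, went from 317, 357 and 361 CPM to 407, 442 and 398 CPM with no overlap, yet its value of 0.27 missed the threshold (edgeR adjusted p = 0.0527). Itgb1, the beta-1 integrin chain at the distal end, stood at 1516, 1590 and 1641 CPM against 2063, 1511 and 1735 CPM, a value of 0.16 that did not pass. Without knockout library 1 the Itgb1 value was 0.03, and with the unmapped covariate 0.37, which passed (edgeR adjusted p = 0.0222). The gene with the most counts in a bin thus rose in some bins and did not pass in others.

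Among the 527 genes, all at 8 CPM and over, the medians of low and high genes were close to one another. The 99 genes at 8 to under 20 CPM had a median of 0.39, the 210 at 20 to under 60 CPM a median of 0.36, and the 218 at 60 CPM and over a median of 0.41. The gap to genes of the same CPM range on other chromosomes was 0.52, 0.51 and 0.55. The spread narrowed with level: the quartiles were 0.05 and 0.58 in the lowest class and 0.22 and 0.55 in the highest, where the median SE was 0.10 against 0.14. Called higher were 50, 108 and 135 genes of the 3 classes (50.5%, 51.4% and 61.9%). Of the genes of the same CPM range elsewhere, 16.1%, 12.1% and 14.0% were called higher.

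Just above the minimum were Ankle1 at 8.503 CPM, with a value of 0.23, and Sh2d4a at 8.62 CPM, with 1.38. Just under it were Cbfa2t3 at 7.67 CPM, with 0.34, Mcemp1 at 7.67 CPM, with -0.73, and Rfxank at 7.77 CPM, with 0.51. Sh2d4a, an SH2 domain adaptor, stood at 4.22, 5.38 and 4.73 CPM in wild-type and 12.2, 13.0 and 12.2 CPM in knockout libraries, so it met the minimum through the knockout libraries. Ankle1, an endonuclease gene with a wild-type mean of 7.83 CPM, also met the minimum through the knockout libraries. The Ankle1 value changed sign with the processing.

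The remaining genes of the chromosome also had positive medians. The 42 genes left out by symbol had a median of 0.33, with 22 called higher and 4 lower. Of the genes elsewhere at the same minimum, 13.7% were called higher and 29.3% lower. The 214 tested protein-coding genes under the minimum had a median of 0.75, against 0.43 for the 4682 such genes elsewhere. The 255 genes of other types, such as long noncoding RNA genes and pseudogenes, had a median of 0.58, against 0.32 for 4654 elsewhere. The median of low genes was above 0 on the other chromosomes as well. For genes under the minimum and for other gene types, the gap to the other chromosomes was smaller than over the 527 genes.

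By role, 246 of the 527 genes were on 1 of 8 lists, and 281 on none. The 281 had the same median as the whole, 0.39, with 157 called higher and 16 lower. The share called higher was 43.6% to 70.8% on 7 of the 8 lists, around the 55.6% of all 527 genes, so these counts describe the lists and set none of the 7 apart. Those 7 lists had medians from 0.28 to 0.45, and the list of immune, interferon and cell death genes had -0.23.

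**Figure D4:**
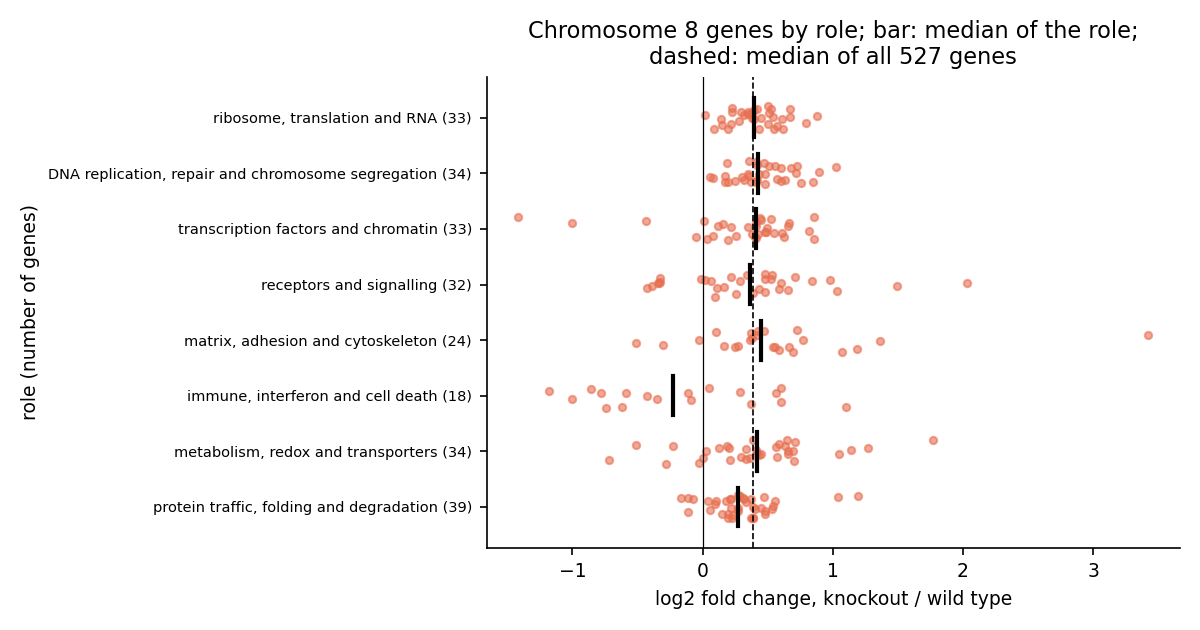
Log2 fold change, knockout over wild type (x axis), of the chromosome 8 genes on each of 8 role lists (y axis, number of genes in brackets), with the median of each list (bar) and of all 527 genes (dashed). The points of 7 lists surround the dashed line, with list medians of 0.28 to 0.45, and the immune list has its median at -0.23.

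Genes of the ribosome, translation and RNA processing were above 0 for 33 of 33, with 21 called higher, none lower and a median of 0.40. The shares over all 527 genes were 86.3% above 0 and 55.6% called higher. Kars, which charges lysine onto its tRNA, stood at 197, 202 and 189 CPM in the wild-type and 305, 322 and 309 CPM in the knockout libraries, a rise of 0.67 (SE 0.082, edgeR adjusted p = 4.69e-04). Nob1, a nuclease that matures the RNA of the small ribosomal subunit, went from 40.7, 41.2 and 40.8 CPM to 79.1, 69.4 and 64.7 CPM, a rise of 0.80. Rpl13, of the large ribosomal subunit, rose by 0.55, Upf1, a helicase of nonsense-mediated decay, by 0.57, and Sf3b3, a splicing factor subunit, by 0.40. Aars, the alanyl-tRNA synthetase (0.23), and Abce1, a ribosome recycling factor (0.15), did not pass.

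Genes of DNA replication, repair and chromosome segregation were above 0 for 34 of 34, with 22 called higher, none lower and a median of 0.43. Over all 527 genes 86.3% were above 0 and 55.6% were called higher. Replication and chromosome segregation are functions of dividing cells, in which Ki-67 itself is made. Polb, the DNA polymerase of base excision repair, stood at 27.4, 26.4 and 25.2 CPM in the wild-type and 51, 45.1 and 50.6 CPM in the knockout libraries, a rise of 0.89 (SE 0.094, edgeR adjusted p = 2.14e-04). E2f4, a cell cycle transcription factor, went from 71.2, 76 and 70.1 CPM to 112, 132 and 123 CPM, a rise of 0.76. Both genes were separated between the groups by more than the spread within either.

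The origin licensing genes Cdt1 and Orc6 rose by 0.68 and 0.60, and Gins2, of the replicative helicase, by 0.41. Dctd, which makes the precursor of thymidine nucleotides, rose by 1.03. Wrn, the helicase lost in Werner syndrome, had 0.06, and Anapc10, of the anaphase-promoting complex, 0.08, and neither passed.

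Transcription factors and chromatin genes had a median of 0.41, with 18 of 33 called higher and 3 lower. Nr2f6, an orphan nuclear receptor, went from 27.2, 29.2 and 28.7 CPM to 50.8, 52.7 and 50.6 CPM, a rise of 0.86 (SE 0.085, edgeR adjusted p = 1.49e-04), with 54.4% of its exonic bases shared with another gene. Sin3b, a corepressor scaffold, rose by 0.61, Gatad2a, a subunit of the NuRD complex, by 0.82, and Crtc1, a coactivator of CREB, by 0.85. Ctcf, which organises chromatin loops, had 0.15 and did not pass. The 3 that fell were Maf and Irf8, factors of myeloid and lymphoid cells, by 1.42 and 1.00, and Chd9, a chromatin remodeller, by 0.43.

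Receptors and signalling genes had a median of 0.36, with 15 of 32 called higher and 2 lower. Egln1, the prolyl hydroxylase that marks hypoxia-inducible factor for degradation, stood at 139, 138 and 157 CPM in the wild-type and 292, 258 and 304 CPM in the knockout libraries, a rise of 0.98 (SE 0.10, edgeR adjusted p = 1.79e-04). Jak3, a kinase of cytokine receptors, rose by 1.03 and Prkaca, the catalytic subunit of protein kinase A, by 0.39. Fgfr1, a fibroblast growth factor receptor, went from 27.9, 33.5 and 39.95 CPM to 67, 125 and 93.9 CPM, a rise of 1.5. Insr and Nrp1, a receptor for semaphorins and VEGF, were the 2 that fell, by 0.43 and 0.39.

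Matrix, adhesion and cytoskeleton genes had a median of 0.45, with 17 of 24 called higher and 1 lower. Elmo3, an engulfment and motility adaptor, went from 16.7, 14.9 and 16.4 CPM to 39.5, 44.4 and 39.5 CPM, a rise of 1.36 (SE 0.10, edgeR adjusted p = 3.36e-05). Bcar1, the adaptor p130Cas of focal adhesions, rose by 1.07 and Fat1, a giant cadherin, by 0.77. Cotl1, an actin-binding protein, had a value at the centre of the 527: 267, 246 and 263 CPM in wild-type and 313, 375 and 322 CPM in knockout libraries, a rise of 0.38 (SE 0.099, edgeR adjusted p = 0.0174). The Cotl1 call was lost in 8 alternatives, among them the removal of any 1 wild-type library or of knockout library 2 (edgeR adjusted p from 0.0519 to 0.131) and DESeq2 (adjusted p = 0.0566). Adam9, a membrane metalloprotease, fell by 0.51.

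Fibroblast markers moved in the same direction as the matrix list, with 4 of 5 higher and Pdgfra lower, and a summed level of 2030 to 2717 CPM in wild-type and 3795 to 7653 CPM in knockout libraries, highest in knockout library 2. Pericyte and smooth muscle markers were higher for 4 of 4, at 123 to 159 CPM and 314 to 554 CPM. The median of the matrix list was likewise highest in knockout library 2, at 0.60, against 0.31 and 0.47 in knockout libraries 1 and 3. The part of these markers in the values of the list was not tested.

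Immune, interferon and cell death genes were mixed, with 8 of 18 called lower (44.4%), 5 higher (27.8%) and 5 not passing. Over all 527 genes 5.88% were called lower, and over the genes of other chromosomes 29.3%. Cyba, a subunit of the phagocyte NADPH oxidase, fell by 0.59, Nlrc5, an activator of MHC class I genes, by 0.78, and Ddx60, an interferon-induced helicase, by 0.85. Lpcat2, a phospholipid-remodelling enzyme of inflammatory cells, went from 33.2, 37.2 and 35.5 CPM to 14.1, 15.8 and 16.8 CPM and fell by 1.18 (SE 0.11, edgeR adjusted p = 9.55e-05). The knockout levels of Lpcat2 were all under the wild-type levels.

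The 5 immune-list genes that rose included Mlkl, the effector of necroptosis, by 0.29. Cx3cl1, the membrane-bound chemokine fractalkine, went from 101, 94.9 and 95.1 CPM to 183, 231 and 210.3 CPM, a rise of 1.1 (SE 0.10, edgeR adjusted p = 1.16e-04). Bst2, an interferon-induced restriction factor, had -0.11 and did not pass. Beside this list, macrophage markers were lower for 6 of 6, as given above, and natural killer cell markers for the 3 of 4 that were tested, at 30.3 to 41.9 CPM in wild-type and 0.47 to 0.99 CPM in knockout libraries, with Prf1 at 0 in knockout library 2. Neutrophil markers were higher for 3 of 4 (219 to 268 CPM and 305 to 427 CPM), and of 3 T cell markers neither of the 2 tested passed (1.04 to 1.80 CPM and 0.59 to 2.54 CPM). Their part in the values of the immune list was not tested.

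Metabolism, redox and transporter genes had a median of 0.41, with 21 of 34 called higher and 2 lower. Atp11a, a flippase that moves phospholipids across the plasma membrane, went from 130, 136 and 139 CPM to 297, 358 and 321 CPM, a rise of 1.27 (SE 0.098, edgeR adjusted p = 3.74e-05). Gsr, which regenerates glutathione, rose by 0.69, Got2, the mitochondrial aspartate aminotransferase, by 0.71, Slc7a5, an amino acid transporter, by 0.66, and Tecr, of fatty acid elongation, by 1.05. The 2 that fell were Slc12a4, a potassium-chloride cotransporter, and Hmox1, the heme oxygenase that is high in macrophages that clear red cells. Hmox1 stood at 187, 198 and 183 CPM in the wild-type and 117, 111 and 116 CPM in the knockout libraries and fell by 0.72 (SE 0.081, edgeR adjusted p = 2.95e-04).

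Lpl, the lipase that frees fatty acids from lipoproteins, went from 28.2, 22.7 and 25.8 CPM to 54.1, 136 and 71.9 CPM, a rise of 1.77. Acsl1, which activates fatty acids, stood at 22.5, 23.1 and 20.1 CPM and at 26.7, 77.7 and 40.9 CPM, a rise of 1.14. Both were highest in knockout library 2. Adipocyte markers were higher for 4 of 4, at 49.6 to 84.3 CPM in wild-type and 185 to 466 CPM in knockout libraries, also highest in knockout library 2, and their part in the Lpl and Acsl1 values was not tested.

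Genes of protein traffic, folding and degradation had a median of 0.28, with 17 of 39 called higher and none lower. Usp10, a deubiquitinase of stress granules, went from 77.2, 81.6 and 82.4 CPM to 144, 188 and 163 CPM, a rise of 1.04 (SE 0.11, edgeR adjusted p = 2.19e-04). Zdhhc2, a palmitoyltransferase, stood at 32.1, 30.7 and 34.9 CPM and at 84.5, 63.2 and 75.5 CPM, a rise of 1.19. Dnajb1, a heat shock cochaperone, rose by 0.56. Lamp1, a membrane protein of lysosomes, had 0.04, Map1lc3b, of autophagosomes, 0.10, and Cul4a, a ubiquitin ligase scaffold, 0.19, and none of these passed.

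A small number of genes lay far from the common shift, 12 by more than 1 above the median on the log2 scale and 18 by more than 1 under it. The largest rise was that of Hsd11b2 (ENSMUSG00000031891, chr8:105518755-105523988, plus strand), which inactivates glucocorticoids. It stood at 0.55, 0.74 and 0.51 CPM in the wild-type and 17.0, 28.2 and 18.1 CPM in the knockout libraries (log2 fold change 5.12). Hsd11b2, Adgrg3, Marveld3 and Sh2d4a are among 9 genes with a wild-type mean under 8 CPM, which met the minimum through the knockout libraries. Their group means had to differ, and their values are a description.

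Crispld2 (chr8:119992438-120052793, plus strand), a secreted cysteine-rich protein whose promoter is given above, went from 15.3, 19.0 and 21.9 CPM to 212, 208 and 183 CPM, 3.42 on the log2 scale (SE 0.15, edgeR adjusted p = 2.18e-06). Kcnk1, a potassium leak channel, stood at 13.2, 13.0 and 13.8 CPM and at 70.0, 64.1 and 66.3 CPM, a rise of 2.33. Hp, the hemoglobin scavenger haptoglobin, went from 44.2, 34.9 and 36.6 CPM to 180, 336 and 146 CPM, a rise of 2.52. In all 3 the lowest knockout level was several times the highest wild-type level.

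Adgrg1 and Adgrg3 are adhesion G protein-coupled receptors that lie side by side. Adgrg1 went from 8.59, 8.71 and 10.3 CPM to 27.8, 51.6 and 33.5 CPM, a rise of 2.03 (SE 0.22, edgeR adjusted p = 2.60e-04). Adgrg3 went from 5.61, 6.59 and 5.51 CPM to 34.2, 50.2 and 41.0 CPM, a log2 fold change of 2.82. Both were highest in knockout library 2.

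**Figure D5:**
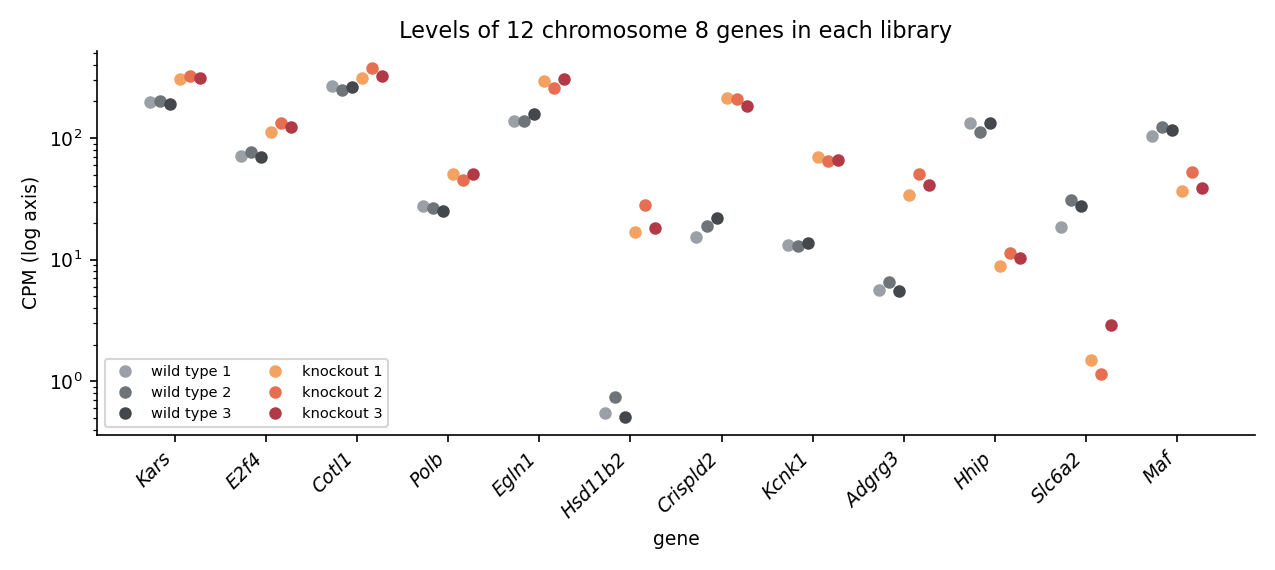
CPM in each of the 6 libraries (y axis, log scale) of 12 chromosome 8 genes (x axis), with wild-type libraries in grey and knockout libraries in orange to red. Kars, E2f4, Cotl1, Polb and Egln1 show rises of 0.38 to 0.98 on the log2 scale, Hsd11b2, Crispld2, Kcnk1 and Adgrg3 rises of 2.33 to 5.12, and Hhip, Slc6a2 and Maf lie lower in each knockout library.

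The largest falls were those of Slc6a2, the noradrenaline transporter (chr8:92960079-93001667, plus strand), and Hhip, a cell-surface decoy for hedgehog ligands (chr8:79965851-80058006, minus strand). Of the 527, 6 genes, among them Slc6a2, F10, Gnao1 and Lyl1, had a knockout mean under 8 CPM and met the minimum through the wild-type libraries, so their group means had to differ and their values are a description. Slc6a2 went from 18.4, 31.0 and 27.5 CPM to 1.5, 1.15 and 2.88 CPM, a log2 fold change of -3.81. Hhip went from 132, 111 and 133 CPM to 8.82, 11.3 and 10.2 CPM and fell by 3.635 (SE 0.13, edgeR adjusted p = 7.67e-07). The neighbours of Hhip by position, Anapc10 and the chromatin remodeller Smarca5, had 0.08 and 0.31 and did not pass.

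F10, coagulation factor X, went from 28.4, 15 and 20.2 CPM to 6.77, 5.81 and 6.37 CPM, a log2 fold change of -1.75. Gnao1, a G protein alpha subunit, went from 12.9, 17.2 and 14.2 CPM to 4.68, 4.46 and 6.45 CPM, a log2 fold change of -1.51. Maf went from 104, 123 and 116 CPM to 36.8, 52.8 and 38.9 CPM and fell by 1.42 (SE 0.14, edgeR adjusted p = 1.75e-04). For Maf the groups did not overlap, while F10 and Gnao1 met the minimum through the wild-type libraries, as given above.

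Lyl1, a transcription factor of blood and endothelial cells, lies within the span of Nfix on the opposite strand (chr8:84701457-84704715). It went from 25.7, 19.5 and 21.4 CPM to 4.42, 10.1 and 5.72 CPM, a log2 fold change of -1.73. Counting was without strand, so reads of Nfix and of Lyl1 cannot be told apart by strand. Of the exonic bases of Lyl1, 0.22% are shared with exons of another gene. That share does not cover unspliced Nfix reads over Lyl1 exons. Macrophage markers fell for 6 of 6 and natural killer cell markers for all 3 tested, as given above. None of 3 endothelial markers passed, at a summed level of 99.0 to 141 CPM in wild-type and 92.2 to 130.5 CPM in knockout libraries. The part of these markers in the Lyl1 value was not tested. The lower level of Lyl1 thus stood within a gene whose own value was 0.44.

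Among the 18 genes more than 1 under the median were also Irf8, Lpcat2, Nlrc5, Ddx60, Cmtm3, Dnase2a, a lysosomal nuclease, Lrrc25, a leucine-rich repeat protein of myeloid cells, and March1, a ubiquitin ligase of antigen-presenting cells. Lrrc25 fell by 1.24, and March1, which met the minimum through the wild-type libraries, had a log2 fold change of -0.76. Macrophage markers, given above, fell in the same libraries, and their part in these values was not tested. The 12 genes more than 1 above the median included also Prag1, a pseudokinase (1.91), Osgin1, an oxidative stress-induced gene (1.80), and Marveld3, of tight junctions (1.64). Epithelial markers, given above, were higher in the same libraries. Keratinocyte markers were higher for 5 of 5, at 52.3 to 87.3 CPM in wild-type and 683.5 to 1289 CPM in knockout libraries, highest in knockout library 2. The part of either list in these values was not tested.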

How the data were processed

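RNA of 6 tumors, 3 per group, was sequenced. The authors deposited raw counts per gene as whole numbers, in 1 unstranded and several stranded columns. STAR 2.6.0c, FastQC, DESeq2 and GRCm38 are named per the submitters' processing notes. Each stranded column held close to the same share, so the unstranded counts were used. Rows that name no gene (unmapped pairs 30.8% to 54.6%) stayed out. Of 54146 gene rows, 54079 matched GENCODE M21 (same build).

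The main test was that of edgeR 4.0.16 under R 4.3.3 (quasi-likelihood, filterByExpr, TMM, Benjamini-Hochberg over 19900 genes, adjusted p threshold 0.05). CPM used TMM library sizes. Per-library differences are of log2(CPM + 0.5) from the wild-type mean. SE is the size of the log2 fold change over the root of its F statistic. Simulated data with 19521 genes gave back 79 of 84 genes changed 2-fold and 116 of 116 changed 4-fold, with 15 of 210 calls false. Every simulated gene had the same relative spread. Changes under 2-fold, such as the median of 1.31-fold, were not simulated, so their recovery is not known.

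The members and lists were chosen with earlier results of these data known. Named genes are the 6 largest calls per direction without overlap, the gene of highest CPM per 10-Mb bin, the 2 smallest p per list, 4 genes of highest CPM within 0.1 of the median and 3 genes on each side of the minimum. Of these and of the lists, 4 genes are not reported here singly. Other genes of a list, bin or neighbourhood were chosen after their values were seen. Genes with over 10% of exonic bases shared with another gene number 68 of the 527. Alternatives were DESeq2 1.42.0, other scalings and filters, a stranded column, a robust fit, covariates, GC removal, a replicate block and each library left out.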

Additional observations from a re-analysis of the deposited data

How the results depend on the processing

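The median of the 527 genes stayed above 0 in the 18 alternatives that kept those genes. The median was 0.33 with DESeq2 (where all genes tested had 0.28 in place of 0.05), 0.44 with library totals, 0.30 with no filter, 0.45 with a stricter filter, 0.44 with a stranded column and 0.33 with only libraries under 40% unmapped pairs, which leaves 1 knockout library, assumed to vary like the others. The gap was 0.51 with the stranded column, 0.50 with the unmapped share as a covariate, 0.505 with libraries under 40% unmapped and 0.48 with GC trends removed. Leaving out 1 library at a time gave medians of 0.32 to 0.42, gaps of 0.51 to 0.53, 150 to 307 genes called higher and 24 to 43 lower. Of all genes tested in those fits, 8.61% to 21.1% were called higher and 10.7% to 22.7% lower. No filter gave 183 called higher, with 7.82% of all genes tested called higher there against 17.6%. Libraries under 40% unmapped gave 51 called lower, with 20.8% of all genes tested called lower against 18.4%. With a minimum of 4 CPM, 317 of 580 genes (54.7%) were called higher, and with 16 CPM 257 of 456 (56.4%). These stand beside 55.6% of the 527 genes and 17.6% of all genes tested.

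Same-numbered libraries did not deviate together (correlations 0.05, -0.21 and -0.24, against -0.11 to 0.25 for differently numbered ones). With 3 libraries per group this cannot show whether the numbers stand for a shared batch, and the labels do not say. With the replicate block, 282 genes were called higher and 35 lower, the median was 0.38, the gap 0.53, and Hmgb2 and Nfix passed. Of all genes tested in that fit, 15.5% were called higher and 18.0% lower.

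Of 234 recomputed bin medians 233 were above 0, the exception being bin 6 at -0.034 without knockout replicate 1 (-0.034 to 0.207 with 1 library left out). The unmapped covariate, libraries under 40% unmapped and GC removal put bin 6 at 0.398, 0.380 and 0.397, where it was not the lowest bin. Of 31 named genes past the threshold, 28 passed in each of the 17 alternatives run for single genes. Calls with the direction kept were gained 19 times, by Hmgb2, Nfix, Glg1, Slc25a4, Cpe and Itgb1, some of them in the fit with 1 knockout library. The following turned direction. Ankle1 was at -0.045 with libraries under 40% unmapped and -0.050 to 0.34 with 1 left out, and Nfix at -0.032 with libraries under 40% unmapped. Nfat5 was at -0.042 with DESeq2, -0.067 with no filter, -0.0017 with the block, -0.0077 without dominant genes, -0.27 with the unmapped covariate, -0.37 with libraries under 40% unmapped and -0.13 to 0.14 with 1 left out. With the unmapped covariate Nfat5 passed as lower (edgeR adjusted p = 0.0424). The cause was not tested.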
